A study of Mus musculus with 19 samples.

Results

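Thyroid hormone reaches the brain mostly as the prohormone thyroxine, and cells inside the brain decide how much of it becomes the active hormone. Slco1c1 encodes a carrier that takes thyroxine across the blood-brain barrier and into astrocytes, and Dio2 encodes the type 2 deiodinase, which removes an iodine from thyroxine to make the active hormone and is known in brain mainly from astrocytes and tanycytes. Thra and Thrb encode the nuclear receptors that bind the active hormone, and Hr, the hairless gene, encodes a receptor corepressor that is itself a long-known thyroid hormone target in rodent brain. These 5 genes, chosen by name from the 16233 genes of the deposited table of all cells, are described here by cell class, neuron cluster, group and library.

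Male C57BL/6J mice gave the tissue, the medial amygdala, and Drop-seq, a droplet method for single cells, measured its transcripts as unique molecular identifiers (UMIs). Act-Seq, a dissociation designed to limit transcription while cells are being prepared, gave 6 libraries of naive mice, 1 of saline-injected controls, 2 of mice affected by seizure, 4 of mice acutely stressed by immobilization and 4 of mice exposed to odors. A conventional dissociation gave 1 saline and 1 seizure library. The mice were 9 weeks old for odor 1 and 2, seizure 1 and immobilization 2 and 3, and 8 weeks old for every other library, all naive ones included. The labels used here name neither the agent that caused the seizures nor the animals behind each library, so p-values measure the spread between libraries, which may be technical.

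The 16 Act-Seq libraries of the table of all cells held 43 to 2189 cells and 116492 to 3723521 UMIs each, with median depths of 997 to 1722 UMIs per cell. Naive 6, with 43 cells, reached 10 cells in no class and entered no test. Pairs of libraries shared at most 2 cell barcodes. The authors' classes were used as deposited; the cells of their separate neuron table (2444 cells in clusters N1 to N16) are called clustered neurons, and the 6206 remaining cells of their neuron class other neuron-labelled cells. The labels of glial and vascular classes matched their markers. The neuron label stood beside much astrocyte marker RNA. In clustered neurons 10 astrocyte markers summed to 10988 to 17548 counts per 1000000 UMIs (CPM) per library and 10 neuron markers to 1853 to 16824 CPM; the astrocyte sum was the higher in 13 of 14 libraries (not in naive 5), and in all 15 libraries of the other neuron-labelled cells. Of both kinds together, 8486 of 8650 cells held an astrocyte marker UMI.

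Dio2 was called in more cell classes than any other member. It lies on chromosome 12 of GRCm38 (mm10), at chr12:90724552-90738438 on the minus strand (GENCODE M21), and the 250 bases before its start in RefSeq's GRCm38.p6 annotation are shown because they hold an uninterrupted cyclic AMP response element; cyclic AMP is a known inducer of Dio2. RefSeq's start lies 600 bases upstream of GENCODE's, and Gm26512 overlaps the gene on the opposite strand. The window chr12:90739039-90739288, minus strand, reads 5′ to 3′ as follows, with the element in capitals.
Dio2 promoter: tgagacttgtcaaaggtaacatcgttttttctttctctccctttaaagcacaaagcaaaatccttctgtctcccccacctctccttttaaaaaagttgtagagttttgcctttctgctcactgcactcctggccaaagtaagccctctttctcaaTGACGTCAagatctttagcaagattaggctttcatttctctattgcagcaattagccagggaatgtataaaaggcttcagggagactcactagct

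The palindrome TGACGTCA begins 95 bases before the start and reads the same on both strands; 1.79% of 32851 promoter windows of 300 bases held it. The shorter core TGACG, which the palindrome contains on either strand, was in 20.8% of windows on 1 strand or the other. Among the members it also stood in 1 of the 2 Thrb windows, 56 bases before the start. AGGTCA, the unit that the receptors bind, searched on both strands, was in 16.3% of all windows and among the members in 1 of the 2 Thrb windows, 184 bases before the start; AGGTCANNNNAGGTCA, its repeat with 4 bases between, was in 0.0152% of windows and in none of the members'. Windows were matched for 3 of the 5 members (Dio2, Slco1c1 and Thrb). A match is a description of letters and shows no binding.

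In astrocytes Dio2 stood at 86.3, 107, 93.8, 48.1 and 73.3 CPM in naive libraries 1 to 5. After seizure it stood at 310 and 373 CPM, after immobilization at 309, 309, 365 and 161 CPM (the last from 50 cells and 12 UMIs), and after odor exposure at 127, 133, 145 and 158 CPM. Every stimulated library lay above every naive one. The share of all genes without overlap was not counted, so statements on overlap, here and below, are descriptions. The mean rose from 81.7 ± 22.4 (SD, n = 5) to 341 ± 44.4 CPM after seizure (n = 2; log2 fold change 2.02, SE 0.18, adjusted p 2.4e-11) and to 286 ± 87.5 CPM after immobilization (n = 4; 1.88, SE 0.16, adjusted p 9.32e-12), by edgeR's quasi-likelihood test over all 10520 genes tested in astrocytes. Among those genes Dio2 ranked 4th by p after seizure, where 0.466% of genes were called, and 2nd after immobilization, where 1.51% were. Both calls held in all 26 alternatives, with log2 changes of 1.88 to 2.18 after seizure and 1.68 to 2.002 after immobilization, and in libraries of 8 weeks alone they were 2.18 and 1.68.

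The odor libraries gave a smaller rise of Dio2 in astrocytes, to 141 ± 13.6 CPM (n = 4; log2 0.70, SE 0.17, adjusted p 0.0384), where 0.656% of genes were called. That call ended in 13 of 26 alternatives, among them the replicate block (0.64, adjusted p 0.0510), age as a covariate (adjusted p 0.118), libraries of 8 weeks alone (adjusted p 0.305), leaving out the 5% of cells with the most UMIs, and leaving out any 1 of the 4 odor libraries, naive 1, 4 or 5, or immobilization 1 or 2. Immobilization against odor exposure differed for 3 genes of 10520 in astrocytes (0.0285%), and Dio2 ranked 1st (1.18, SE 0.16, adjusted p 3.43e-05). The other 2, Arl4d and Nfkbia, were named after their values were seen. In libraries of 8 weeks alone (immobilization 1 and 4, odor 3 and 4) the difference was 0.88 with an adjusted p of 1. Seizure against immobilization, with 0.276% of genes called in astrocytes, gave a Dio2 difference of 0.14 (SE 0.17, adjusted p 0.999). The 3 comparisons with naive mice share the naive libraries.

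**Figure D1:**
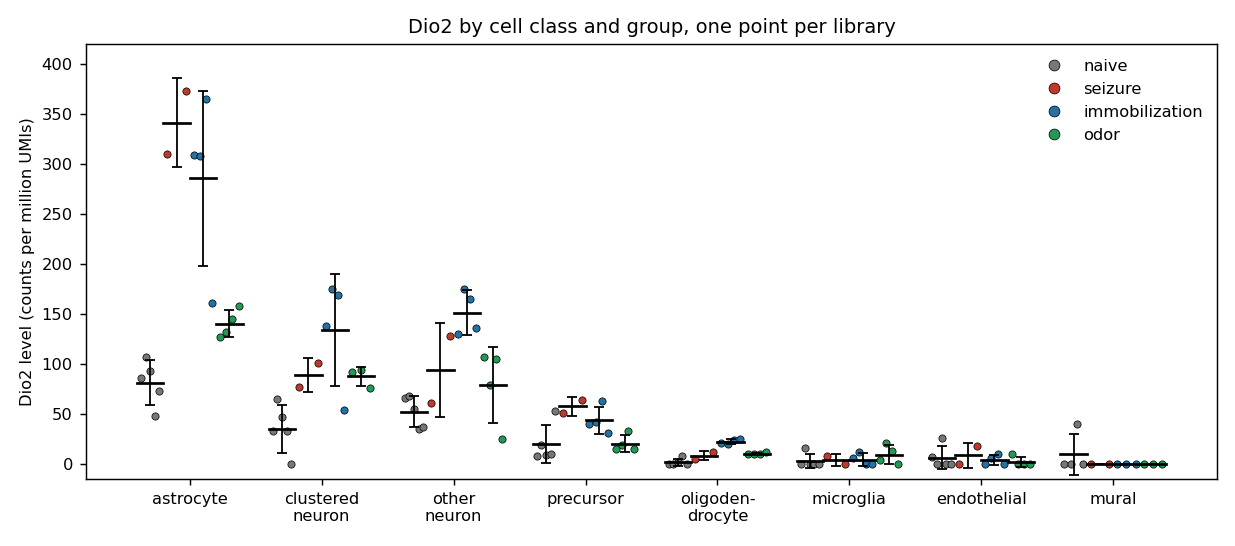
Dio2 level in CPM (vertical axis) in 8 cell classes (horizontal axis), 1 point per library with at least 10 cells, coloured by group, with the mean (bar) and SD (whisker). In astrocytes the seizure libraries, at 310 and 373, and the immobilization libraries, at 161 to 365, sit above all naive libraries, at 48.1 to 107, while no library of microglia, endothelial or mural cells exceeds 40.7.

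The share of astrocytes with a Dio2 UMI was higher in the stimulated groups, though no test of it passed after adjustment. With each cell thinned to 600 UMIs, at least 1 was held by 4.33 ± 1.03% of naive astrocytes (n = 5 libraries). The share was 18.1 ± 2.28% in the seizure libraries (n = 2), 15.2 ± 3.36% in those of immobilization (n = 4) and 7.92 ± 0.934% in those of odor exposure (n = 4). Unthinned, the shares were 10.1%, 34.4%, 30.1% and 16.1%, at median depths of 1402, 1328, 1431 and 1218 UMIs. Of thinned microglia, 0.140% to 0.584% held a Dio2 UMI, at median depths of 1049 to 1237 UMIs. The part of free RNA in the astrocyte shares was not tested. The raw exact two-sided permutation p was the smallest the library numbers allow in each contrast, 0.0476 for seizure and 0.00794 for the other 2. After adjustment over 15 tests (5 members, each in its class of highest naive level, and 3 contrasts) they were 0.179 for seizure and 0.0595 for immobilization and for odor, and none of the 15 passed. Astrocytes with a Dio2 UMI averaged 1.48 of them in naive libraries, 1.78 after seizure, 1.88 after immobilization and 1.39 after odor exposure.

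Clustered neurons carried Dio2 at 32.9, 65.6, 47.0, 33.0 and 0 CPM in naive libraries 1 to 5, and at 138, 176, 169 and 54.1 CPM after immobilization. Immobilization 4, with 15 cells and 2 Dio2 UMIs, overlapped the naive range and the other 3 did not. The mean rose from 35.7 ± 24.1 (n = 5) to 134 ± 55.9 CPM (n = 4; log2 1.86, SE 0.24, adjusted p 1.78e-06), 1 of 7 genes called there (0.0795% of 8808). Other neuron-labelled cells rose from 52.5 ± 15.4 to 152 ± 22.2 CPM (1.39, SE 0.24, adjusted p 1.18e-04; 0.0812% of genes called), with the 4 immobilization libraries at 130 to 175 CPM and the 5 naive ones at 35.5 to 67.9 CPM. In libraries of 8 weeks alone the first was 1.53 (adjusted p 0.0329) and the second 1.143 (adjusted p 0.661). After seizure both classes missed the threshold, at 1.04 (SE 0.28, adjusted p 0.321) and 0.62 (SE 0.29, adjusted p 1), with clustered neurons at 77.3 and 101 CPM. After odor exposure they did too, at 1.06 (SE 0.27, adjusted p 0.107) and 0.66 (SE 0.25, adjusted p 0.769).

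Dio2 in neuron-labelled cells was set beside the astrocyte markers there. Pooled over libraries, clustered neurons held Dio2 at 49.8% of the astrocyte level in naive mice, 49.1% after immobilization, 63.5% after odor exposure and 24.8% after seizure. Over the 10 astrocyte markers the same ratio had a median of 23.2%, 22.6%, 24.5% and 23.4% in those groups, with single markers between 11.1% and 103% and none at 0. None of the 164 neuron-labelled cells without an astrocyte marker UMI held a Dio2 UMI; their 191826 UMIs allow up to 15.6 CPM from 3 counts, against 91.8 CPM in clustered neurons and 100 CPM in other neuron-labelled cells that held such a UMI. Those 164 cells did hold 85 Thra UMIs (443 CPM) and 7 Thrb UMIs (36.5 CPM). The astrocyte marker sum of clustered neurons ranged from 10988 to 16534 CPM in naive libraries and from 15631 to 17548 CPM after immobilization, and its part in the Dio2 values was not tested.

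Oligodendrocytes held little Dio2 but also rose with immobilization, from 0, 0, 2.46, 8.51 and 0 CPM in naive libraries to 21.01, 20.03, 24.6 and 25.4 CPM, with no overlap. These are 4 UMIs in 525 naive cells and 34 in 528 immobilization cells. edgeR gave log2 3.05 (SE 0.68, adjusted p 0.00792), where 0.9% of 7447 genes were called, and DESeq2 gave an adjusted p of 0.0643. Dio2 passed the filter on low counts in this class only through its immobilization libraries, so the test was not neutral between groups. Only 14 alternatives gave a value for it. The level came to 2.71% of the astrocyte level in naive mice and 6.88% after immobilization, while the astrocyte markers had medians of 4.32% and 4.81%; their part in the result was not tested. Oligodendrocyte precursors, whose Dio2 did not pass the filter on low counts, stood at 20.03 ± 19.0 CPM in naive libraries (n = 5), 58.0 ± 9.33 after seizure (n = 2) and 44.2 ± 13.4 after immobilization (n = 4). Microglia held 20 Dio2 UMIs in all tested libraries together, endothelial cells 9 and mural cells 1.

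The rise was set against that of astrocytes within each library, as the difference of log2(CPM + 10) between classes. After immobilization astrocytes gained 1.77 more than endothelial cells, 1.46 more than microglia and 2.48 more than mural cells, and 0.27 more than other neuron-labelled cells, while clustered neurons gained 0.14 more than astrocytes. After seizure astrocytes gained 1.27 more than other neuron-labelled cells, 0.60 more than clustered neurons and 1.802 more than microglia. None of these 14 exact two-sided permutation tests passed after adjustment: the lowest raw p was 0.00794, for microglia after immobilization, and the lowest adjusted p 0.0952. The 2 seizure libraries cannot give a raw p below 0.0476 against 5 naive ones. Hence no class difference in the Dio2 response was shown, and the tests do not show that classes responded alike.

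The cluster numbered N16 (268 cells) stood second among 16 for Dio2, with 91 UMIs and 149 CPM (95% Poisson interval 120 to 183, counting error only). N2 stood highest at 169 CPM (122 to 227) and N9 lowest at 16.6 CPM (5.38 to 38.7), so N16 and N2, neighbours in this order, did not differ beyond counting error. N16 held 8.72% of the clustered neurons' UMIs and 14.3% of their Dio2 UMIs. By pooled fold over the other 15 clusters, with 10 CPM added, Dio2 was 1.67-fold higher and ranked 47th of all genes, behind Vtn in front at 3.21-fold; the clusters were made from the same cells, so this is a description. The neuron name sits poorly with N16: its neuron markers summed to 1322 CPM and its astrocyte markers to 19105 CPM.

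Within N16 Dio2 stood at 24.1, 88.4, 163 and 40.5 CPM in naive libraries 1 to 4, at 225, 264 and 399 CPM in immobilization 1 to 3, at 186, 140 and 111 CPM in odor 1 to 3 and at 138 and 168 CPM in seizure 1 and 2. The immobilization libraries lay above all the others, on 40 UMIs against 15 in the naive ones. edgeR gave log2 1.84 (SE 0.55) for immobilization against naive with an adjusted p of 0.476, and 0.93 (SE 0.67) for seizure. Dio2 passed the filter on low counts in N16 only through its immobilization libraries, so the test was not neutral between groups. No gene of 1351 passed in N16 in any of the 5 comparisons, with 38 to 62 genes at an unadjusted p under 0.05, and DESeq2 called Dio2 there in none.

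N9 and N12 were the only 2 clusters whose neuron marker sum (22102 and 79447 CPM) exceeded their astrocyte marker sum (3280 and 2649 CPM), and they were also the 2 lowest for Dio2, at 16.6 and 37.1 CPM. Their 220 cells together held 14 Dio2 UMIs (25.7 CPM, 14.1 to 43.1). The other 14 clusters held 96.5 CPM (89.1 to 104), with single clusters from 60.4 to 169 CPM. Across the 16 clusters the Dio2 level and the astrocyte marker sum had a Pearson r of 0.62, given as a description of clusters that share libraries.

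**Figure D2:**
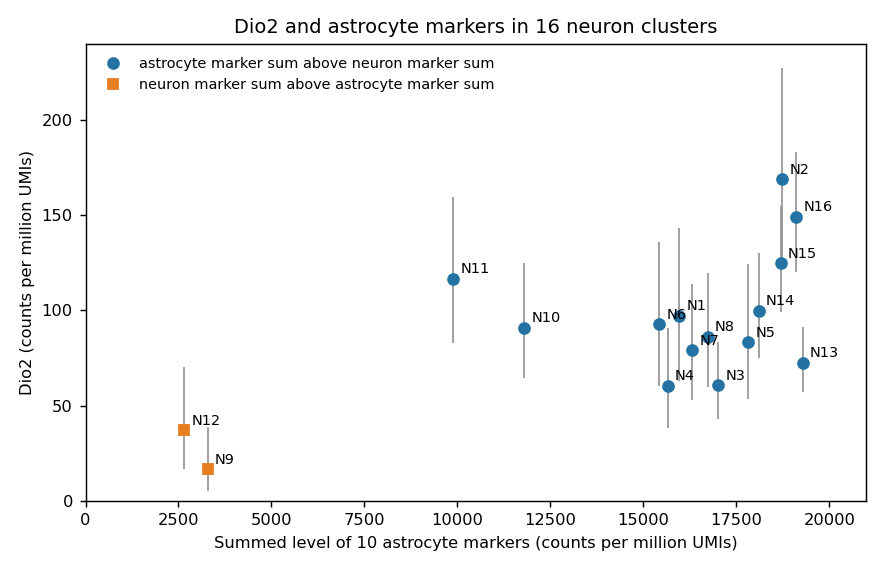
Dio2 level (vertical axis, with 95% Poisson intervals) against the summed level of 10 astrocyte markers (horizontal axis), both in CPM, for the 16 neuron clusters pooled over libraries. N9 and N12 (squares), where neuron markers exceed astrocyte markers, lie at 16.6 and 37.1, and N16 and N2 lie highest at 149 and 169.

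Hr, at chr14:70552212-70573548 on the plus strand, rose in astrocytes with immobilization and with odor exposure. It stood at 9.47, 10.8, 4.75, 7.40 and 0 CPM in naive libraries 1 to 5, at 38.8, 59.8, 31.0 and 13.4 CPM after immobilization, and at 47.4, 38.5, 66.4 and 39.4 CPM after odor exposure. The seizure libraries stood at 14.4 and 24.7 CPM. No stimulated library overlapped the naive range, although immobilization 4 rests on 1 UMI and the share of all genes without overlap was not counted. The mean rose from 6.49 ± 4.30 (n = 5) to 35.8 ± 19.3 CPM after immobilization (n = 4; log2 2.47, SE 0.33, adjusted p 1.81e-06) and to 47.9 ± 12.96 CPM after odor exposure (n = 4; 2.69, SE 0.33, adjusted p 1.43e-06), where Hr ranked 15th and 2nd of all genes by p. Both held in every alternative that gave a value, 26 and 25 of them. Hr passed the filter on low counts in astrocytes only through stimulated libraries, so its tests were not neutral between groups. DESeq2 gave no adjusted p for Hr after odor exposure, so it did not call it there. In libraries of 8 weeks alone the changes were 2.18 and 2.91. After seizure Hr reached 19.6 ± 7.23 CPM (n = 2; 1.32, SE 0.45, adjusted p 0.423), which did not pass.

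The group means stood in another order for Hr than for Dio2 in astrocytes. Odor exposure gave Hr its highest mean and Dio2 its smallest rise, and seizure gave the reverse. Immobilization against odor exposure was −0.22 (SE 0.26, adjusted p 1) for Hr and 1.18 for Dio2, and seizure against immobilization was −1.15 (SE 0.36, adjusted p 0.333) for Hr and 0.14 for Dio2. No test of the difference between the 2 genes was made. Within a group, Hr was not higher in the astrocytes that held a Dio2 UMI: it stood at 36.4 against 51.1 CPM after immobilization and at 41.6 against 54.2 CPM after odor exposure, in cells with and without one. Those with one were deeper (median 1765.5 against 1290 UMIs after immobilization), so these are values with no test.

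Other classes held little Hr. Oligodendrocytes stood at 15.8 ± 9.98 CPM in naive libraries (n = 5), the highest naive level of any class, and at 16.4 ± 6.78 after immobilization, 13.3 ± 7.90 after odor exposure and 12.9 ± 5.41 after seizure, with log2 changes of 0.08 to 0.26 against naive and no call. Clustered neurons held 2.92 ± 3.03 CPM in naive libraries and 9.56 ± 6.75 after immobilization, too few counts to be tested. Endothelial cells held 2 Hr UMIs and microglia 3.

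**Figure D3:**
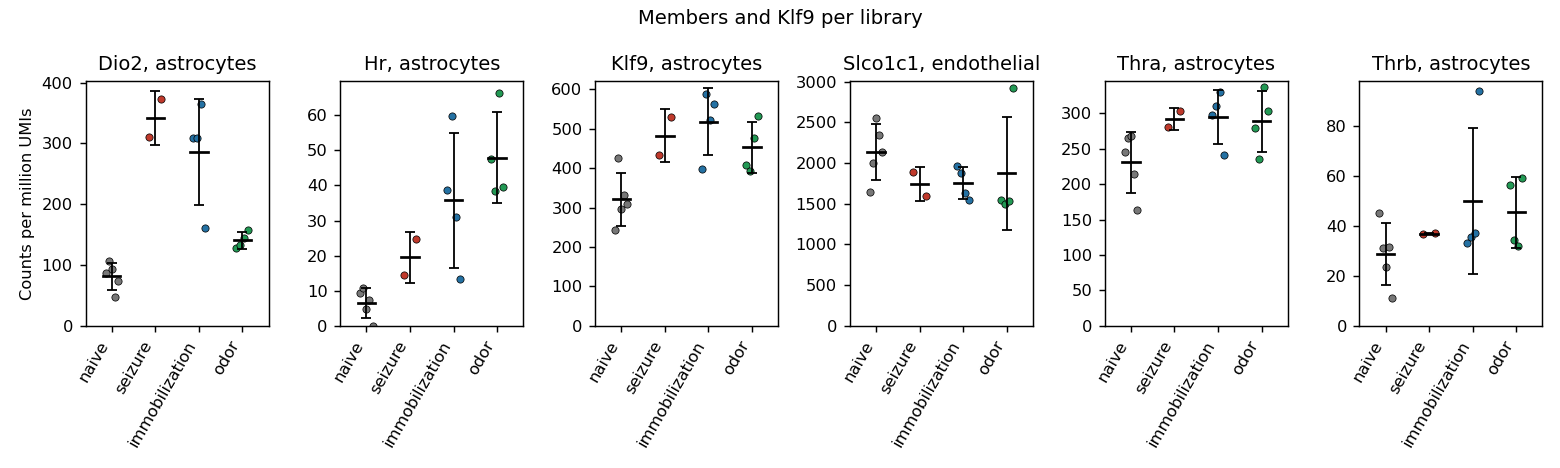
Levels of Dio2, Hr, Klf9, Thra and Thrb in astrocytes and of Slco1c1 in endothelial cells, in CPM (vertical axes, each from 0), 1 point per library by group with mean and SD. Stimulated libraries lie above all naive ones for Dio2 and Hr, while for Slco1c1 and Thrb no group lies wholly above or below the naive libraries, and for Thra only the seizure group does.

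The carrier Slco1c1, at chr6:141524368-141570177 on the plus strand, was an endothelial and astrocyte gene. Endothelial cells held 1646, 2001, 2555, 2350 and 2139 CPM in naive libraries 1 to 5, 1965, 1882, 1629 and 1548 CPM after immobilization, 1893 and 1593 CPM after seizure, and 1543, 1496, 1528 and 2919 CPM after odor exposure. The immobilization libraries at 1629 and 1548 CPM, the seizure library at 1593 CPM and 3 odor libraries lay below the naive range. The other immobilization and seizure libraries lay within it, and odor 4, with 12 cells, lay above it. Changes against naive were −0.24 (SE 0.20) after immobilization, −0.29 (SE 0.25) after seizure and −0.34 (SE 0.20) after odor exposure, with adjusted p of 0.747, 0.957 and 0.866. Astrocytes came next, at 221 ± 22.9 CPM in naive libraries (n = 5), 212 ± 22.1 after immobilization, 195 ± 37.2 after seizure and 193 ± 20.5 after odor exposure, with changes of −0.12, −0.18 and −0.26 and no call. With cells thinned to 600 UMIs, 67.0 ± 4.66% of naive endothelial cells and 12.7 ± 1.44% of naive astrocytes held a UMI, against 0.404% of microglia. In every other class the highest group mean was 49.1 CPM.

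Thra, the receptor gene with the most UMIs of the 5 members, was found in every class and highest in neuron-labelled cells. In naive libraries the order of class means was clustered neurons 843 ± 123 CPM, other neuron-labelled cells 739 ± 90.9, oligodendrocytes 574 ± 188, precursors 487 ± 84.9, astrocytes 231 ± 43.1, endothelial cells 210 ± 94.2, mural cells 170 ± 17.9 and microglia 51.6 ± 19.8. Down to the precursors, and again from astrocytes to mural cells, neighbours in this order did not differ by more than the larger SD; precursors and astrocytes did, as did mural cells and microglia. Clustered neurons stood at 731 to 1119 CPM after immobilization, 752 to 1029 after odor exposure and 872 and 1161 after seizure, over the naive 705 to 1039. Astrocytes stood at 297, 309, 329 and 241 CPM after immobilization against 164 to 267 in naive libraries, a change of 0.35 (SE 0.13, adjusted p 0.267). The 2 seizure libraries, at 281 and 303 CPM, lay above the naive range, with a change of 0.30 (SE 0.15, adjusted p 0.812). Oligodendrocytes went the other way after immobilization, with 4 libraries at 356 to 453 CPM below 5 naive ones at 456 to 907 CPM. That change was −0.29 (SE 0.16, adjusted p 0.803). Among neuron clusters N11 (1638 CPM, 1503 to 1781) and N10 (1523 CPM, 1407 to 1646) were highest and N12 lowest (531 CPM, 444 to 631), and N16 stood 11th at 842 CPM.

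Thra spans chr11:98740638-98769006 on the plus strand, and its last 1075 bases overlap Nr1d1, a circadian repressor gene on the minus strand. The labels do not state if reads were counted by strand, so those in the overlap cannot be told apart. Nr1d1 stood at 72.4 to 181 CPM in naive astrocytes and at 74.3 to 107 CPM after immobilization (log2 −0.61, SE 0.20, adjusted p 0.134).

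Thrb, at chr14:17660261-18038090 on the plus strand with 3 genes opposite it, was low. Naive means were 44.4 ± 4.64 CPM in other neuron-labelled cells, 29.9 ± 22.2 in clustered neurons and 28.6 ± 12.4 in astrocytes, against 3.25 in endothelial cells and 4.37 in microglia; mural cells, on 5 UMIs, stood at 36.4 ± 40.4 CPM. In astrocytes it stood at 45.2, 31.2, 23.7, 31.5 and 11.3 CPM in naive libraries, 33.0, 35.8, 37.1 and 93.8 CPM after immobilization, 36.7 and 37.0 CPM after seizure, and 56.2, 34.2, 32.1 and 59.2 CPM after odor exposure, with changes of 0.24, 0.23 and 0.41 and no call. Immobilization 4, at 93.8 CPM, rests on 7 UMIs. Neither receptor nor the carrier passed the test in any class: 70 comparisons (14 pairs of member and class, 5 contrasts) gave no call in the tests reported nor in any alternative. Over all genes 0.0946% to 0.782% of pairs were called per contrast, so few or no calls would be expected among 70 comparisons of any genes. This depth does not show that they did not change.

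**Figure D4:**
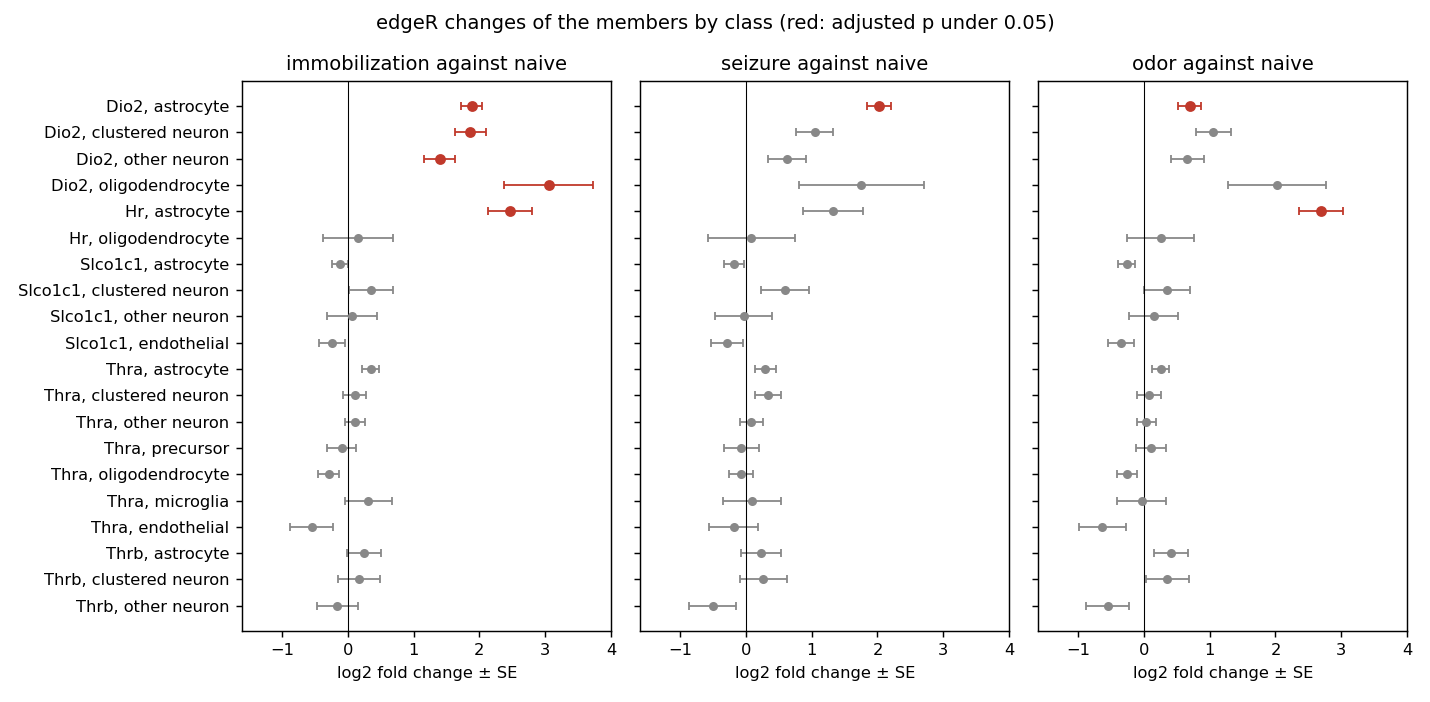
Log2 fold change with its standard error (horizontal axes) for the 20 tested pairs of member and class (rows) in the 3 comparisons with naive libraries, red where edgeR's adjusted p was under 0.05. Dio2 and Hr in astrocytes are the pairs called more than once, and Slco1c1, Thra and Thrb lie between −0.63 and 0.59.

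Counted over classes, 20 of the 40 pairs of member and class held enough counts for a test. Against naive libraries, 5 pairs rose after immobilization, 4 of Dio2 and 1 of Hr. The oligodendrocyte pair among them passed the filter on low counts only through its immobilization libraries. The Hr pair in astrocytes, here and after odor exposure, passed it only through stimulated libraries. After seizure 1 pair rose and after odor exposure 2 did, and none fell in these comparisons. Over all genes and 8 classes, 0.782%, 0.278% and 0.253% of pairs were called in those comparisons. Immobilization against odor exposure called 1 member pair (0.0946% of all pairs), and seizure against immobilization none (0.122%), with 3 member pairs at an unadjusted p under 0.05 and none called by DESeq2.

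Calls among other genes of the pathway were few, as over all genes, where 0.0946% to 0.782% of pairs of gene and class were called per comparison. At those shares lists this short give few or no calls, so the counts show nothing particular to the pathway. Of 8 genes of thyroid hormone transport, 6 had counts for a test (21 pairs of gene and class) and none passed in any comparison. Of 12 receptor partners, among them Rxra, Ncor1 and Med1, all were tested (68 pairs) and none passed. Of 8 genes of hormone metabolism, 6 were tested (31 pairs); Wsb1, a ubiquitin ligase adaptor that acts on the deiodinase, fell in microglia after immobilization (−1.16, SE 0.21, adjusted p 1.89e-04), a call lost in libraries of 8 weeks alone (−0.78, adjusted p 0.513), and it was the 1 call. Dio3, which inactivates the hormone, had 19 UMIs in 20679 cells.

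Of 14 thyroid hormone targets, 11 were tested (53 pairs), and 2 pairs, both of Klf9, rose after immobilization, where 0.782% of all pairs were called. After seizure 1 pair rose, where 0.278% were, and 0 did without seizure 2, without naive 1 or without libraries under 300 cells. Klf9, a hormone-responsive transcription factor that glucocorticoids also induce, stood in astrocytes at 242, 426, 297, 331 and 310 CPM in naive libraries and at 397, 588, 523 and 563 CPM after immobilization, where naive 2 lay above immobilization 1. It rose by 0.66 (SE 0.14, adjusted p 0.00311), a call lost without immobilization 2 (0.55, adjusted p 0.0848) and in libraries of 8 weeks alone (0.44). In oligodendrocytes it rose by 0.95 (SE 0.21, adjusted p 0.00723), lost without immobilization 3, without naive 1, with age as a covariate and at 8 weeks alone. In astrocytes the 9 targets tested had a median log2 change of 0.28 after immobilization, 0.24 after odor exposure and 0.12 after seizure, beside −0.02, −0.01 and −0.01 over all genes.

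Across 23 cell units (6 glial and vascular classes, 16 clusters and the other neuron-labelled cells), each member was set beside the 5 genes most like it in log2(CPM + 10), as a description of units that share libraries. Dio2 was closest to Cxcl14 (Pearson r 0.95), Clu (0.95), Tspan7, Slc1a2 and Trim9 (each 0.94). Slco1c1 was closest to Id1 (0.92), Tfrc (0.87), Ccdc141 (0.86), Gatsl3 (0.85) and Aqp11 (0.83). Among the 5 for Thra were Zfr (0.96), Zfp365 (0.95) and Snrpn (0.94), and among those for Thrb were Chn1 (0.92), Sfxn1, Nr2f1 (each 0.91) and Wwc1 (0.90). Hr, on 521 UMIs, came no closer than 0.73 (Fgfbp3), then Slc6a9 (0.72), Meis1, Ddr1 (each 0.70) and Ccdc24 (0.68).

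A second table compares dissociation methods in saline 7, seizure 1 and 2 (Act-Seq), and the conventional saline and seizure libraries. Its 1777 cells of seizure 1 and 1123 of seizure 2 had counts identical to cells of the same libraries in the first table but none carried the same barcode, so its barcodes were not used, and its seizure values are not independent of those above. In this table conventional saline and seizure 1 shared 1115 barcodes, and the library names of the 3 libraries that the first table lacks could not be checked in the same way. Cells were clustered anew, and the clusters called astrocyte-like from 10 markers contained 827 of those seizure cells, 778 of them astrocytes of the authors. Dio2 stood there at 91.3 CPM in saline 7 (95% Poisson interval 75.4 to 110), 197 CPM in conventional saline (164 to 235), 277 and 353 CPM in seizure 1 and 2, and 323 CPM in conventional seizure (275 to 377). All 3 seizure libraries lay above both saline ones. In an additive edgeR fit the seizure term was 1.36 (SE 0.21, adjusted p 0.00127; 0.152% of 9240 genes called) and the conventional term 0.55 (SE 0.20, adjusted p 0.154; 4.07% called). DESeq2 gave the seizure term the same size with an adjusted p of 0.787.

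Thra in astrocyte-like cells stood at 334, 363 and 358 CPM in the Act-Seq libraries and at 179 and 184 CPM in the conventional ones (conventional term −0.85, SE 0.16, adjusted p 0.00135). This depended on which cells were called astrocyte-like: at Leiden resolution 0.4, which left out 58, 58 and 42 cells of the Act-Seq libraries and 1 of each conventional one, the term was −0.40 (adjusted p 0.44). Hr stood at 12.7 CPM in saline 7, 38.4 in conventional saline, 19.7 and 23.8 in seizure 1 and 2 and 16.2 in conventional seizure, on 8 to 24 UMIs each, with no call. Of 30 tested genes of the pathway lists, Klf9 was higher in the conventional libraries (0.57, SE 0.15, adjusted p 0.0264), Mbp and Nrgn were lower, and none changed with seizure. Slco1c1 in endothelial-like cells stood at 2060, 1202, 1778, 1646 and 1764 CPM in that order of libraries, with no call. Neuron-like cells of the conventional libraries, 487 and 274 of them with astrocyte marker sums of 535 and 425 CPM, held Dio2 at 2.08 and 1.30 CPM (4 and 1 UMIs), Thra at 367 and 334 CPM and Thrb at 49.9 and 29.8 CPM.

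**Figure D5:**
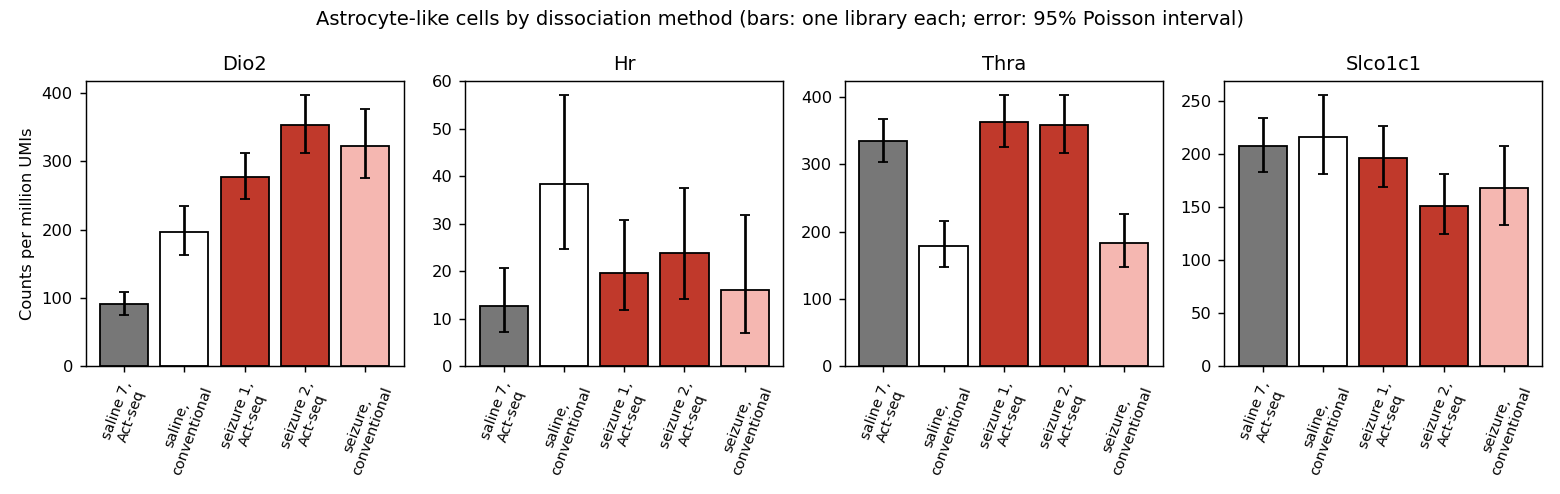
Levels of Dio2, Hr, Thra and Slco1c1 in astrocyte-like cells (CPM, vertical axes from 0) in the 5 libraries of the dissociation table, 1 bar per library with its 95% Poisson interval. Dio2 is higher in the 3 seizure libraries, at 277 to 353, than in the saline ones, at 91.3 and 197, and Thra is lower in both conventional libraries.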

How the data were processed

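The authors deposited raw UMI counts per gene and cell, with a class for each cell of the first table and a cluster for each of 2444 neurons. Per the submitters' processing notes, bcl2fastq 2.17.1.14, STAR 2.5.0a and the mm10 genome were used; neither the labels nor the headers name the counting tool or the filters on cells. Counts were summed per library and class (at least 10 cells) and tested with edgeR 4.0.16 quasi-likelihood fits (R 4.3.3; TMM, filterByExpr) over all genes of a class, 4 groups in 1 fit, with Benjamini-Hochberg adjustment and a threshold of 0.05. DESeq2 1.42.0, no filter, age as a covariate, cell and library filters and leaving out each library were alternatives. Where the cells or library left out had no part in a class, the alternative repeats the reported fit and cannot fail. The counts of alternatives may include such repeats. CPM are counts per 1000000 UMIs of a class. Shares of cells were computed after thinning to 600 UMIs, and the dissociation table was clustered with scanpy 1.11.5 (Leiden, resolution 0.8); doublets were not called. Named genes are the 5 members, list genes past the threshold, and the 5 genes most like each member; the members and lists were chosen with earlier results of these data known. A few of the named genes, the target called after seizure among them, are not reported here. Poisson intervals and the limit of 3 counts cover counting error only.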

Additional observations from a re-analysis of the deposited data

Results flagged for a closer look

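In 7 of 56 groups of 4 or 5 libraries screened, 1 library stood far from the rest by Dixon's test; chance gives about 1 in 20. Dio2 in oligodendrocytes of naive 4 stood at 8.51 CPM on 3 UMIs, and the nearest naive library at 2.46 CPM. Slco1c1 stood apart in 4 groups: in astrocytes of naive 1 at 261 CPM (nearest 217), in endothelial cells of odor 4 at 2919 CPM (nearest 1543; 12 cells), in clustered neurons of immobilization 4 at 54.1 CPM (nearest 33.6; 2 UMIs) and in other neuron-labelled cells of odor 3 at 38.7 CPM (nearest 25.8). Thra in oligodendrocytes of naive 5 stood at 907 CPM on 12 cells (nearest 529), and Thrb in astrocytes of immobilization 4 at 93.8 CPM on 7 UMIs (nearest 37.1).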

How the results depend on the processing

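Of 3197 values of single members, reported list genes and shares under the alternatives, 3170 kept their side of the threshold. Another 25 lost the call, 2 gained it and 0 reversed a call, and the causes were not tested. Uncalled values could change sign and still count as kept. Thra in clustered neurons after immobilization, at log2 0.11 in the reported test, ran from −0.14 to 0.23. Libraries of 8 weeks alone, an alternative chosen after seeing the data, left 3 of 5 member pairs after immobilization, 1 of 2 after odor exposure and 0 of 1 between those. For odor exposure the count was also 1 with age as a covariate, with DESeq2 and without the 5% of cells with the most UMIs, and 1 to 3 with a library left out. Leaving out a library gave 4 to 5 pairs after immobilization, 1 after seizure, 0 between seizure and immobilization and 1 between immobilization and odor exposure. Where 1 seizure library remains, it is assumed to vary like the other groups.

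Genes called over all classes numbered 144 after seizure (DESeq2 94, no filter 226, 86 to 154 with a library left out), 405 after immobilization (8 weeks 94; 259 to 451) and 131 after odor exposure (8 weeks 54, no filter 297; 62 to 217). Seizure against immobilization gave 63 (DESeq2 31, 8 weeks 17, no filter 146; 30 to 76) and immobilization against odor exposure 49 (DESeq2 28, 8 weeks 8, no filter 102; 20 to 60). The 2 dissociation terms called fell to 1 with DESeq2 and to 1 at Leiden resolution 0.4.

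Libraries with the same number in different groups gave low correlations of their deviations (18 pairs, r −0.20 to 0.14, 3 of them above 0.1). These values cannot show if the numbers pair the libraries. With the number as a replicate block, member pairs called were 5, 1, 1, 0 and 1, and genes 357, 136, 122, 74 and 59. The order is immobilization, seizure, odor exposure, seizure against immobilization and immobilization against odor exposure. Depth limits Hr (521 UMIs) and Thrb (962 UMIs), and every value of immobilization 4, naive 5 and odor 4.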

Other observations

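Slco1c1, unlike Hr, was higher in the astrocytes that held a Dio2 UMI than in those without one in all 4 groups: 306 against 214 CPM in naive mice, 230 against 175 after seizure, 233 against 181 after immobilization and 218 against 175 after odor exposure. These cells were also deeper, with median UMIs of 1883 against 1356, 1541 against 1214, 1766 against 1290 and 1533 against 1172, and the part of depth in the difference was not tested.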
